A study of Mus musculus with 37 samples.

Results

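The BCL2 family survival genes described here are 10 genes taken by name from the 53700 Ensembl genes that were counted: Bcl2, Bcl2l1, Mcl1, Bcl2a1b, Bcl2l11, Bax, Bak1, Bid, Bbc3 and Pmaip1. All 10 were present in each of the 37 libraries. The rule that names them uses no measured value, but the genes were chosen with earlier results of these data known. The libraries are bulk RNA-seq of uterine natural killer (uNK) cells, sorted as live CD45+ NKp46+ cells from the pregnant uterus of C57BL6 mice at gestation day 9.5 to 10.5. Inhibitory receptors of NK cells, among them NKG2A and Ly49C/I, recognise self MHC class I, and cells that carry one are called educated. From WT mice there were 9 libraries of uneducated cells (negative for both receptors), 9 of NKG2A+ cells (negative for Ly49C/I) and 6 of Ly49C/I+ cells (negative for NKG2A). From mice labelled NKG2A KO, on the C57BL6 background too, there were 8 libraries of uneducated cells and 5 of Ly49C/I+ cells. The sources used here give neither how the NKG2A KO allele was made nor whether the libraries of a group came from separate mice, so the p-values measure only the spread between these libraries.

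Between 13287163 and 18875033 reads were counted on genes per library (median 17273311). Klrc1, which encodes NKG2A, was at a median of 579 CPM (counts relative to library size, scaled by TMM) in NKG2A+ cells and at medians of 1.84 to 3.38 CPM in the other 4 groups. Since uneducated and Ly49C/I+ cells were sorted as NKG2A-negative in both genotypes, Klrc1 does not check the knockout label. Of 10 NK cell markers, all had at least 5 CPM in all 37 libraries. Cd4, Cd8a and Cd8b1 did not exceed 3.33 CPM in any library, whereas the summed T cell list, which also holds Cd3 genes and Trac, ranged from 86.5 to 242 CPM. Fewer genes had a count in 4 libraries than in the others, namely WT uneducated 5 (13990 genes), WT NKG2A+ 9 (13982), WT Ly49C/I+ 5 (14038) and NKG2A KO Ly49C/I+ 5 (14197). Results that change without these 4 libraries are given both ways.

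Proteins of the BCL2 family decide whether the outer membrane of the mitochondrion stays intact. Bcl-2, Bcl-xL, Mcl-1 and A1 protect it, Bax and Bak form the pores that open it and release cytochrome c, and BH3-only proteins such as Bim, Bid, Puma and Noxa either bind the protective proteins or activate the pore formers. In NK cells, Mcl-1 and Bcl-2 are known for keeping cells alive downstream of interleukin-15, and Bim for removing them. The members meet through the BH3 helix, whose core is a leucine, any 3 residues, a glycine or alanine, and an aspartate. The stretches of coding DNA that hold this core are shown for 8 members, protective, effector and BH3-only, in which it was found. They come from the longest coding sequence of each gene in GENCODE M21 (GRCm38), each lies within 1 coding exon, and the capitals mark the 6 codons of the core.

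Mcl1 (chr3:95659430-95659459, plus strand): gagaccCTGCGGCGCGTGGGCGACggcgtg
Bcl2 (chr1:106712578-106712607, minus strand): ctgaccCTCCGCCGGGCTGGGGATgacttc
Bcl2l1 (chr2:152829700-152829729, minus strand): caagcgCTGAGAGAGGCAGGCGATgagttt
Bax (chr7:45466000-45466029, minus strand): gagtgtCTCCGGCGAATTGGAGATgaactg
Bak1 (chr17:27022534-27022563, minus strand): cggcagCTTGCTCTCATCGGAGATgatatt
Bcl2l11 (chr2:128147144-128147173, plus strand): caggagCTGCGGCGGATCGGAGACgagttc
Bid (chr6:120897292-120897321, minus strand): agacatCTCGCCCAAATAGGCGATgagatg
Bbc3 (chr7:16313767-16313796, plus strand): gcccagCTGCGGCGGATGGCGGACgacctc

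Each of these 8 coding sequences held the core exactly once. The coding sequence of Bcl2a1b held no match, which says only that these letters are not in it, and Pmaip1 was not searched. The core is short, and 23.8% of 21764 protein-coding genes held at least 1 match in their longest coding sequence, so that the match is a description and not an identification.

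Bcl2a1b needs its own sequences, because it is 1 of several near-identical copies that encode A1. Its 516 coding bases differed from those of Bcl2a1d at 6 positions (98.8% identical) and from those of Bcl2a1a at 11 (97.9%). The first 30 coding bases are shown, with the 5 positions at which the 3 copies differ in capitals.

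Bcl2a1a (chr9:88957051-88957080, plus strand): atgGctgagtCTgagCtcatgCatatccac
Bcl2a1b (chr9:89199360-89199389, plus strand): atgGctgagtACgagTtcatgTatatccac
Bcl2a1d (chr9:88731690-88731719, minus strand): atgTctgagtACgagTtcatgTatatccac

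Of the 768 stretches of 50 bases in the Bcl2a1b transcripts, 79.2% also occur in transcripts of other genes, mainly Bcl2a1d, Gm29094 and Bcl2a1a. Gm29094 also overlaps 49.1% of its exon bases on the same strand. Reads in those stretches cannot be assigned to 1 copy, and ambiguous reads and reads aligned to several places were summarised apart from the genes. The level of Bcl2a1b is therefore uncertain and may be too low. For Mcl1, Bcl2l1, Bbc3 and Pmaip1 no such stretch was shared, and for Bcl2l11 the share was 0.135%.

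Per length, Mcl1 was the most abundant family transcript in uNK cells and Bak1 the least. Over all 37 libraries, Mcl1 was at 116 ± 13.2 RPKM (CPM per kilobase of exon, mean ± SD, n = 37) and Bax at 78.1 ± 8.20. Bid followed at 33.1 ± 6.05 RPKM and Bcl2l11 at 28.8 ± 6.09, which differed by less than their SD. Bcl2l1 (19.0 ± 3.62 RPKM), Bcl2a1b (18.5 ± 5.30) and Bcl2 (17.9 ± 4.34) likewise lay within 1 SD of each other, although Bcl2a1b may be undercounted. Bbc3 (9.72 ± 2.87 RPKM) and Pmaip1 (6.74 ± 3.22) were lower, and Bak1 was at 1.31 ± 0.552 RPKM. As a share of the summed RPKM of the 10 members, the 4 protective genes made up 51.9 ± 3.60%, the effectors Bax and Bak1 24.2 ± 2.31% and the 4 BH3-only genes 23.9 ± 2.14% (SD, n = 37). The protective share was lowest in WT Ly49C/I+ cells (49.8 ± 3.23%, n = 6) and highest in NKG2A KO Ly49C/I+ cells (55.2 ± 2.91%, n = 5), and the libraries of these groups overlapped at 50.7% to 52.5%. These shares are a description and were not tested.

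**Figure D1:**
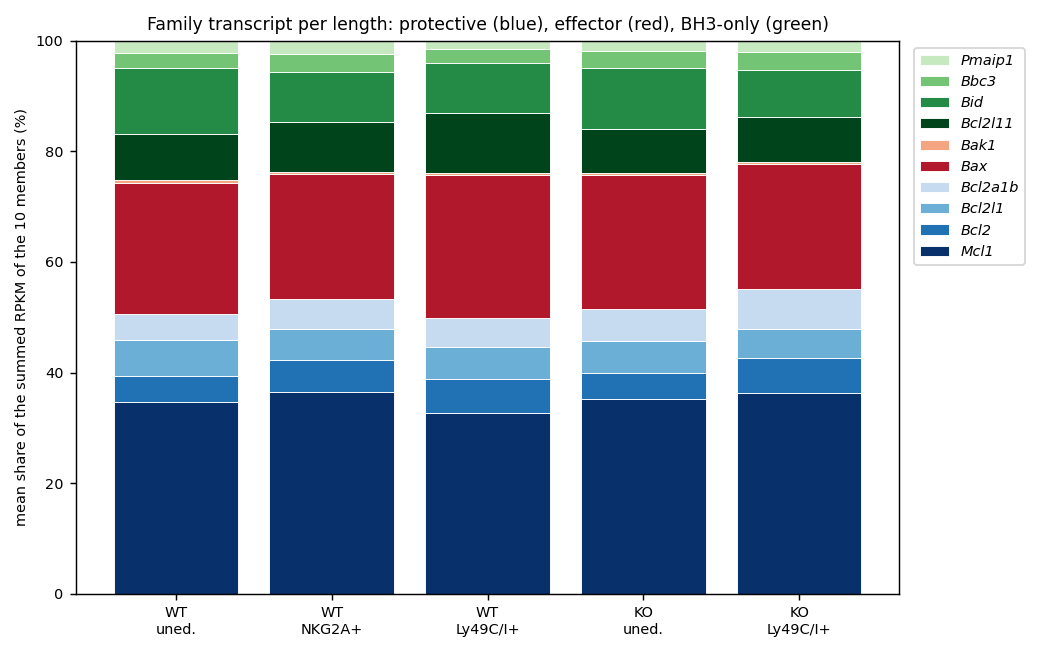
Stacked bars give the mean share (%) of each member in the summed RPKM of the 10 members, for each of the 5 groups (uned., uneducated; KO, NKG2A KO). Mcl1 took 32.7% to 36.5% and Bax 22.6% to 25.9% of the sum in every group, and Bak1 did not exceed 0.535%.

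Mcl1 (ENSMUSG00000038612, chromosome 3, 95658788 to 95663176, plus strand) encodes a short-lived protective protein. In WT cells it ranged from 316 to 421 CPM with a median of 357 in uneducated libraries, from 316 to 464 with a median of 409.6 in NKG2A+ libraries, and from 300.5 to 422 with a median of 388 in Ly49C/I+ libraries. Uneducated libraries from NKG2A KO mice ranged from 367 to 437 CPM (median 396). The 5 NKG2A KO Ly49C/I+ libraries, numbered 4 to 8, had 463, 459, 455, 469.5 and 412 CPM. Of these, 4 lay above all 8 NKG2A KO uneducated libraries, and library 8 lay among them. From lowest to highest, the group means had the order WT uneducated, WT Ly49C/I+, NKG2A KO uneducated, WT NKG2A+ and NKG2A KO Ly49C/I+, and each neighbouring pair in that order overlapped.

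Bcl2 (ENSMUSG00000057329, chromosome 1, 106538178 to 106714274, minus strand), the founding protective member of the family, had a lower mean and a wider spread in uneducated cells of both genotypes. WT uneducated libraries had a lowest value of 88.8, a median of 128 and a highest value of 195 CPM. WT NKG2A+ libraries had 138, 181 and 203 CPM, and WT Ly49C/I+ libraries 161, 182 and 218 CPM, in the same order. Uneducated NKG2A KO libraries had 87.1, 138 and 224 CPM. The 5 NKG2A KO Ly49C/I+ libraries, numbered 4 to 8, had 221, 204, 176, 240.5 and 192 CPM. In each genotype the educated libraries all lay above the median of the uneducated libraries, and the groups overlapped. The SD was 26.8% of the mean in WT uneducated and 29.9% in NKG2A KO uneducated cells, against 12.1% to 13.7% in the 3 educated groups. On the opposite strand, the antisense gene D630008O14Rik overlaps 6.09% of the exon bases of Bcl2, and reads there cannot be told apart if the counting, whose strand setting is not given, ignored strand.

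Bcl2l1 (ENSMUSG00000007659, chromosome 2, 152780668 to 152831728, minus strand), which encodes Bcl-xL, had the narrowest range of group means among the 9 members tested, although single libraries spread more than for Mcl1, Bax or Bid (an SD of 19.0% of the mean over 37 libraries). The means lay between 83.5 ± 12.0 CPM in WT NKG2A+ cells (SD, n = 9) and 90.1 ± 23.1 CPM in WT uneducated cells (SD, n = 9). Single libraries ranged from 59.5 to 146 CPM, and the highest was WT uneducated 5, 1 of the 4 libraries with few detected genes. Bcl2a1b (ENSMUSG00000089929, chromosome 9, 89199209 to 89207827, plus strand) ranged from 8.55 to 16.1 CPM in WT uneducated (median 12.1), from 10.8 to 18.3 in WT NKG2A+ (median 13.5) and from 9.68 to 20.8 in WT Ly49C/I+ libraries (median 13.6). In NKG2A KO uneducated libraries it ranged from 11.9 to 19.5 CPM (median 15.6). The 5 NKG2A KO Ly49C/I+ libraries, numbered 4 to 8, had 30.2, 24.6, 21.3, 20.0 and 14.5 CPM. Of these, 4 lay above all NKG2A KO uneducated libraries.

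The effector Bax (ENSMUSG00000003873, chromosome 7, 45461697 to 45466898, minus strand) varied little, with an SD of 10.5% of the mean over the 37 libraries. Its group means lay between 115 ± 14.9 CPM in WT uneducated (SD, n = 9) and 134 ± 6.59 CPM in WT Ly49C/I+ cells (SD, n = 6). The gene Gm45808 overlaps 12.2% of its exon bases on the same strand. Bak1 (ENSMUSG00000057789, chromosome 17, 27019810 to 27029009, minus strand), the other pore former, had between 10 and 123 reads per library, or 0.589 to 7.85 CPM, and reached 5 CPM in 3 of the 37 libraries. It therefore passed the filter on low counts in no comparison. Its group means were 2.50 to 3.94 CPM, and Ggnbp1 on the opposite strand overlaps 25.5% of its exon bases. With a filter of 1 CPM instead, its log2 fold changes in the 7 comparisons lay between -0.66 and 0.88, with adjusted p from 0.368 to 0.999 (edgeR quasi-likelihood test).

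Bcl2l11 (ENSMUSG00000027381, chromosome 2, 128126038 to 128162547, plus strand) encodes Bim, the BH3-only protein that binds all protective members. Its mean was highest in WT Ly49C/I+ cells, in which the 6 libraries ranged narrowly from 263 to 321 CPM (median 284). WT uneducated libraries ranged from 145 to 289 CPM (median 201), and WT NKG2A+ libraries from 187 to 278 CPM (median 233). Uneducated libraries from NKG2A KO mice ranged from 166 to 299 CPM (median 196). The 5 NKG2A KO Ly49C/I+ libraries, numbered 4 to 8, had 211, 336, 203, 172 and 264 CPM, which spans more than the range of the WT Ly49C/I+ group. The SD was 7.23% of the mean in WT Ly49C/I+ cells and 27.1% in NKG2A KO Ly49C/I+ cells. WT uneducated and WT Ly49C/I+ libraries overlapped only through uneducated library 9.

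Bid (ENSMUSG00000004446, chromosome 6, 120891930 to 120916853, minus strand) encodes a BH3-only protein that caspases and granzyme B cleave to its active form. It ran opposite to Bcl2, with higher group means in uneducated cells of both genotypes. WT uneducated libraries ranged from 99.6 to 173 CPM (median 129), WT NKG2A+ libraries from 82.5 to 132 CPM (median 99.9) and WT Ly49C/I+ libraries from 89.7 to 115 CPM (median 111). In NKG2A KO mice, uneducated libraries ranged from 104 to 164 CPM (median 127). The 5 NKG2A KO Ly49C/I+ libraries, numbered 4 to 8, had 120.2, 83.1, 107, 96.6 and 136 CPM. Groups overlapped in both genotypes. The gene Bcl2l13 overlaps 17.7% of the exon bases of Bid on the opposite strand. If strand was ignored, reads there may have been set aside as ambiguous, which would lower the level of Bid.

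Bbc3 (ENSMUSG00000002083, chromosome 7, 16308393 to 16318205, plus strand) and Pmaip1 (ENSMUSG00000024521, chromosome 18, 66458533 to 66465565, plus strand) encode Puma and Noxa, BH3-only proteins first known as products of p53 target genes. Bbc3 had group means of 17.3 to 24.8 CPM and ranged from 11.9 to 38.0 CPM over single libraries. Pmaip1 had group means of 13.5 to 21.9 CPM and the widest spread of the members with at least 5 CPM in most libraries, with an SD of 47.7% of the mean over 37 libraries. Its lowest values were 0.191 CPM in WT uneducated 5, from 3 reads, and 2.25 CPM in WT Ly49C/I+ 5, from 36 reads, both libraries with few detected genes. All other libraries had at least 8.85 CPM.

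**Figure D2:**
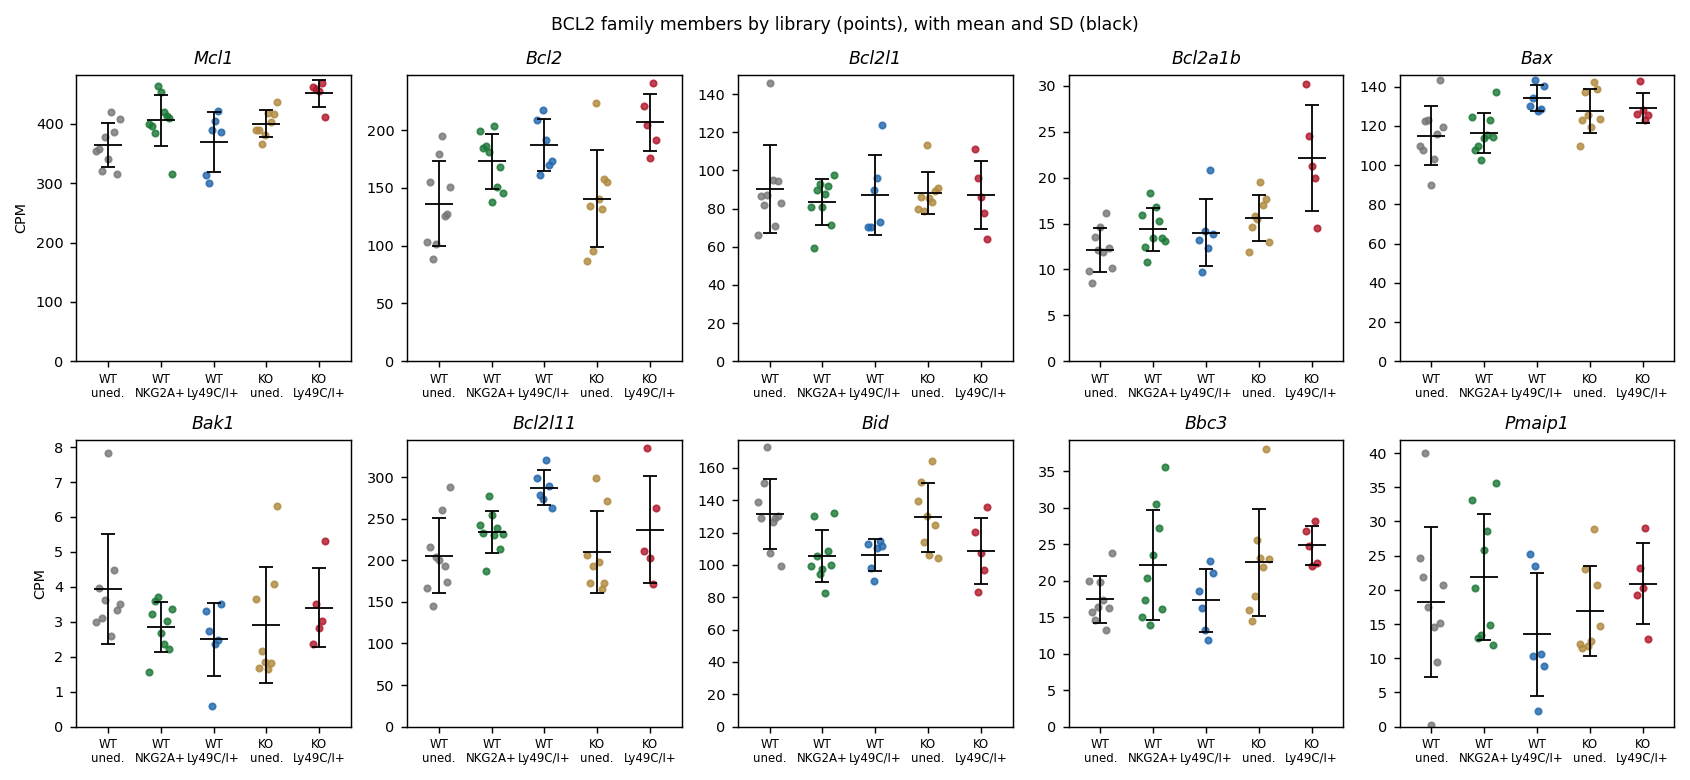
Each panel shows the CPM of 1 member in every library (points) for the 5 groups, with the group mean and SD in black, and each vertical axis starts at 0. The 6 WT Ly49C/I+ libraries of Bcl2l11 sit between 263 and 321 CPM, whereas the 9 WT uneducated libraries spread from 145 to 289 CPM.

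Some markers of other cells and of cell handling moved with the same groups. Of 12 genes that respond to tissue dissociation, such as Junb and Dusp1, 4 were higher in NKG2A+ than in uneducated WT cells, 3 in Ly49C/I+ than in uneducated WT cells and 3 in the same comparison in NKG2A KO mice, and none was lower. Of all genes tested, 15.0%, 9.20% and 16.3% passed in these 3 comparisons, in the same order. The summed level of the 12 dissociation genes was 4952 to 8425 CPM in WT uneducated, 6439 to 10670 in WT NKG2A+ and 7857 to 11090 in WT Ly49C/I+ libraries, and 5427 to 11800 and 9166 to 15110 CPM in NKG2A KO uneducated and Ly49C/I+ libraries. Of 4 epithelial markers, only Epcam passed the filter on low counts, and it was lower in educated cells in all 3 comparisons. The summed level of the 4 epithelial markers was 47.2 to 196 CPM in WT uneducated, 19.7 to 80.3 in WT NKG2A+ and 26.3 to 44.3 in WT Ly49C/I+ libraries, and 35.2 to 74.6 and 10.1 to 33.8 CPM in NKG2A KO uneducated and Ly49C/I+ libraries, with Krt19 at 0 in the last group. Of 3 endothelial markers, only Pecam1 passed the filter, and it was lower in both educated WT groups. The sum over the 3 markers was 207 to 346 CPM in WT uneducated, 121 to 205 in WT NKG2A+ and 140.0 to 218 CPM in WT Ly49C/I+ libraries. Cdh5 had no reads in any NKG2A KO library. A single tested marker does not show that endothelial or epithelial cells were present. Cd3e and Cd3d of the T cell list were higher in NKG2A+ than in uneducated WT cells, with a sum over the 7 T cell genes of 91.2 to 223 against 86.5 to 186 CPM. Hbb-bs and Hbb-bt were higher in NKG2A+ than in uneducated WT cells, with a sum over 4 globin genes of 643 to 2479 against 180.0 to 1215 CPM. The 10 NK cell markers went both ways. In NKG2A+ against uneducated WT cells 5 were higher and 2 lower. In Ly49C/I+ against uneducated cells 2 were higher and 2 lower in WT mice, and 6 and 2 in NKG2A KO mice. The lower ones were Prf1 and Gzmb each time. The part of these cells and states in the results was not tested, and in bulk RNA fewer cells of a type and less RNA per cell cannot be told apart.

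NKG2A+ and uneducated WT cells were compared to ask which family genes differ with education through NKG2A. No member passed the test, although Bcl2 was at 173 against 136 CPM on average and Bid at 105 against 132 CPM. Of the 9 members tested, 0 had an adjusted p under 0.05, against 15.0% of the 9339 genes tested (edgeR quasi-likelihood test with Benjamini-Hochberg adjustment, 698 genes higher and 706 lower). At an unadjusted p under 0.05 there were 3 members, against 2651 genes. The likelihood ratio test and DESeq2 each called 1 member, Bid, and the share of all genes that they called is not given here. Bid had a log2 fold change of -0.31 (SE 0.106, adjusted p = 0.0539). Bcl2 had a log2 fold change of 0.35 (95% confidence interval 0.06 to 0.64, adjusted p = 0.0979), and Mcl1 one of 0.16 (0.01 to 0.32, adjusted p = 0.161). The protective Bcl2l1 (-0.11, -0.39 to 0.18) and the effector Bax (0.03, -0.14 to 0.20) had intervals that reach no more than 0.39 from 0 on the log2 scale. For Bcl2l11 the value was 0.20 (-0.03 to 0.43), for Bcl2a1b 0.25 (-0.12 to 0.63), for Bbc3 0.35 (-0.05 to 0.75) and for Pmaip1 0.28 (-0.63 to 1.19), with adjusted p from 0.246 to 0.732. The median over the 9 members was 0.20, beside 0.01 over all genes tested.

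Bid and Bcl2 lay near the threshold, and single libraries moved them across it. Without the libraries of few detected genes, Bid was at -0.39 (adjusted p = 0.0130) and Bcl2 at 0.44 (adjusted p = 0.0282, edgeR quasi-likelihood test). Bid also passed without WT uneducated 5 or 9 or WT NKG2A+ 2 or 9 (adjusted p from 0.0241 to 0.0347), and Bcl2 without WT uneducated 5 or 6 (adjusted p from 0.0300 to 0.0324). Pmaip1 changed sign without the libraries of few detected genes, to -0.0194.

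Ly49C/I+ and uneducated WT cells were compared to ask the same of education through Ly49C/I. Bcl2l11 rose, from 206 ± 45.3 CPM in uneducated cells (SD, n = 9) to 288 ± 20.8 CPM in Ly49C/I+ cells (SD, n = 6), and 3 of the 6 Ly49C/I+ libraries lay above all uneducated libraries. Its log2 fold change was 0.50 (SE 0.127, adjusted p = 0.0190, edgeR quasi-likelihood test), a fold of 1.42. It was the only 1 of 9 members past the threshold, against 9.20% of 9292 genes tested (418 higher and 437 lower). Bcl2 did not pass, with a log2 fold change of 0.47 (95% confidence interval 0.14 to 0.80, adjusted p = 0.0717). Bax (0.24, 0.05 to 0.43, adjusted p = 0.105) and Bid (-0.29, -0.52 to -0.05, adjusted p = 0.113) did not pass either. Mcl1 was at 0.04 (-0.16 to 0.23), Bcl2l1 at -0.04 (-0.40 to 0.33), Bcl2a1b at 0.22 (-0.26 to 0.71) and Bbc3 at 0.0013 (-0.43 to 0.43). Pmaip1 was at -0.41 with an interval from -1.66 to 0.84, too wide to place it. The median over the 9 members was 0.04, beside 0.01 over all genes tested.

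The Bcl2l11 difference passed under 24 of 26 alternatives, with a log2 fold change from 0.45 to 0.60. Of the 26, 15 left out 1 library and share most of their data. Another summed the A1 copies, which left the value of Bcl2l11 at 0.50, so the alternatives are not independent. It did not pass when genes of low counts were kept (adjusted p = 0.0556) or without WT Ly49C/I+ library 5 (0.46, adjusted p = 0.0508, edgeR quasi-likelihood test). Without the libraries of few detected genes, which include that library, it was 0.47 (adjusted p = 0.0317), and Bcl2 then passed at 0.53 (adjusted p = 0.0392). Bcl2 also passed without WT uneducated 5 (0.54) or 6 (0.54), with adjusted p = 0.0244 and 0.0289.

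The comparisons of NKG2A+ and of Ly49C/I+ cells share the 9 uneducated libraries, so the educated WT groups were also compared with each other. Bcl2l11 fell by 0.31 on the log2 scale in NKG2A+ relative to Ly49C/I+ cells, at 234 ± 25.1 against 288 ± 20.8 CPM (SD, n = 9 and 6), with an SE of 0.0786 and an adjusted p of 0.0404 (edgeR quasi-likelihood test). It was the only 1 of 9 members past the threshold, against 2.73% of 9308 genes tested. Of the other members, Bax was at -0.21 (95% confidence interval -0.38 to -0.05, adjusted p = 0.133), Mcl1 at 0.13 (-0.06 to 0.31), Bcl2 at -0.12 (-0.33 to 0.09) and Bid at -0.02 (-0.24 to 0.20). Bcl2l1 (-0.07), Bcl2a1b (0.03), Bbc3 (0.35) and Pmaip1 (0.69, -0.15 to 1.53) had adjusted p from 0.390 to 0.962, and the median over the 9 members was -0.0216. The Bcl2l11 call was at the edge of the threshold and held in 8 of 26 alternatives. It was lost without any 1 of WT NKG2A+ libraries 1, 2, 3, 6, 7 and 8 and WT Ly49C/I+ libraries 1, 2, 4, 5 and 7, with adjusted p from 0.0523 to 0.0988, and without the libraries of few detected genes (-0.27, adjusted p = 0.0999), while the log2 fold change stayed between -0.34 and -0.25 throughout.

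In NKG2A KO mice, Ly49C/I+ cells were compared with uneducated cells. Bcl2 rose, from 141 ± 42.1 CPM in uneducated cells (SD, n = 8) to 207 ± 25.0 CPM in Ly49C/I+ cells (SD, n = 5). Its log2 fold change was 0.56 (SE 0.171, adjusted p = 0.0343, edgeR quasi-likelihood test), a fold of 1.47, and 1 of the 5 Ly49C/I+ libraries lay above all uneducated libraries. It was the only 1 of 9 members past the threshold, against 16.3% of 9299 genes tested (683 higher and 836 lower). Mcl1, at 452 ± 22.7 against 400.2 ± 22.7 CPM (SD, n = 5 and 8), had a log2 fold change of 0.18 (95% confidence interval 0.05 to 0.32, adjusted p = 0.0634). Bcl2a1b, at 22.1 ± 5.79 against 15.6 ± 2.48 CPM, was at 0.51 (0.08 to 0.93, adjusted p = 0.0947), and at 0.35 (adjusted p = 0.169) when its counts were summed with those of Bcl2a1a and Bcl2a1d. Bcl2l11 was at 0.18 (-0.17 to 0.53, adjusted p = 0.501) and Bid at -0.25 (-0.53 to 0.04, adjusted p = 0.219). Bax (0.03), Bcl2l1 (-0.02), Bbc3 (0.15) and Pmaip1 (0.31) had adjusted p from 0.465 to 0.941, and the median over the 9 members was 0.18.

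The Bcl2 call in NKG2A KO mice held in 9 of 24 alternatives, with a log2 fold change from 0.31 to 0.69. The lowest values came from the fits with the replicate number as a block, at 0.38 (adjusted p = 0.0531) and, with GC content and length offsets, 0.31 (adjusted p = 0.127). It was also lost when genes of low counts were kept, with a filter of 1 CPM and with the offsets alone, with adjusted p from 0.0508 to 0.0851. Among fits with 1 library left out, it was lost without any 1 of uneducated libraries 1, 2, 3, 5 and 6 and Ly49C/I+ libraries 4, 5, 7 and 8, with adjusted p from 0.0502 to 0.0950 (edgeR quasi-likelihood test). Library 5 is the Ly49C/I+ library with few detected genes, and without it the log2 fold change was 0.56 (adjusted p = 0.0556). Without uneducated library 4, which had 224 CPM, it was 0.69 (adjusted p = 0.00356). Bcl2a1b passed without Ly49C/I+ library 8, at 0.62 (adjusted p = 0.0449).

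**Figure D3:**
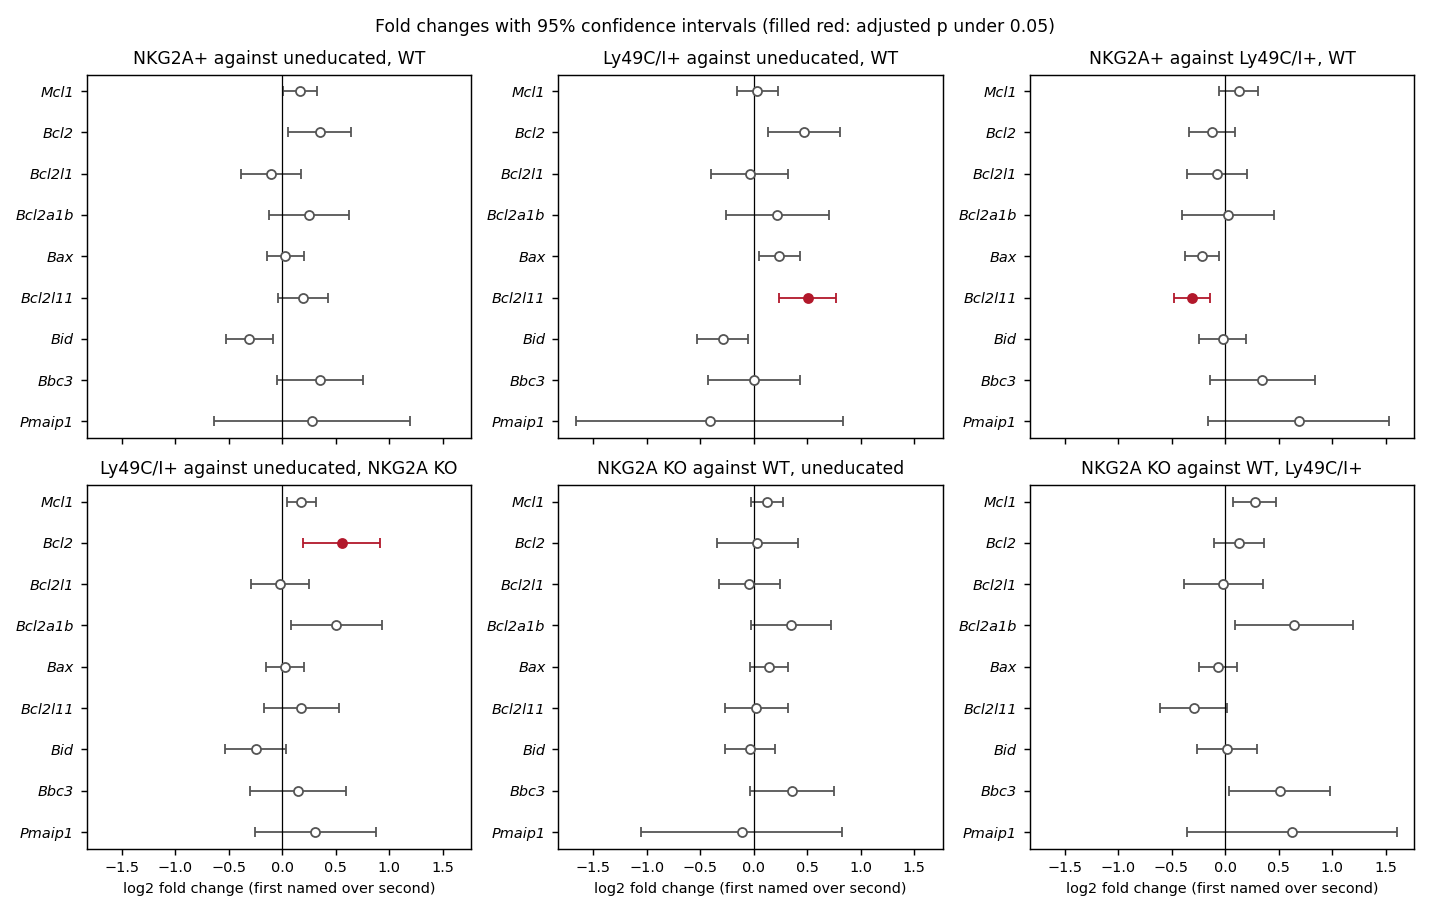
Points give the log2 fold change of 9 members in the 6 comparisons of 2 groups (first named over second) and bars the 95% confidence interval, with adjusted p under 0.05 in filled red. The 3 filled points are Bcl2l11 in Ly49C/I+ against uneducated WT cells (0.50), Bcl2l11 in NKG2A+ against Ly49C/I+ WT cells (-0.31) and Bcl2 in Ly49C/I+ against uneducated NKG2A KO cells (0.56).

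Genotypes were compared within each sorted population, and the Ly49C/I+ effect was compared between genotypes. Both populations were gated as NKG2A-negative. In NKG2A KO mice these gates can also take in cells that would carry NKG2A in WT mice. In these 3 comparisons, a difference of genotype therefore cannot be told apart from a difference in the cells sorted. No member passed in any of these 3 comparisons, and neither did any other gene (0% of 9288, 9344 and 9322 genes by the edgeR quasi-likelihood test). In simulated data the same 3 tests recovered 25.4%, 10.4% and 10.4% of log2 fold changes of 0.5. Over genes at large, most differences of that size would therefore be missed. The rate for a given member, whose spread may be smaller or larger, was not simulated. At an unadjusted p under 0.05 there were 619, 992 and 407 genes and 0, 3 and 0 members, while the likelihood ratio test called 1, 60 and 1 genes and DESeq2 1, 84 and 1, among them no member. In uneducated cells, NKG2A KO minus WT gave log2 fold changes from -0.11 for Pmaip1 to 0.36 for Bbc3. In Ly49C/I+ cells, Mcl1 was at 452 ± 22.7 CPM in NKG2A KO and 369.6 ± 49.9 CPM in WT mice (SD, n = 5 and 6), a log2 fold change of 0.28 (95% confidence interval 0.08 to 0.48, adjusted p = 0.345). Bcl2a1b was at 0.64 (0.09 to 1.20, adjusted p = 0.424), Bbc3 at 0.51 (0.04 to 0.98, adjusted p = 0.441) and Bcl2l11 at -0.29 (-0.60 to 0.02, adjusted p = 0.507). Bcl2l11, which passed with Ly49C/I in WT but not in NKG2A KO mice, was not shown to differ between them, since the difference of its effect was -0.31 (95% confidence interval -0.76 to 0.14, adjusted p = 0.999). For Bcl2, which passed in NKG2A KO but not in WT mice, the difference was 0.10 (-0.40 to 0.61, adjusted p = 0.999).

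In no comparison of 2 groups were the libraries of a member fully apart. Of all genes tested, 2.01% and 2.42% had groups without overlap for NKG2A+ and Ly49C/I+ against uneducated WT cells, 1.07% for NKG2A+ against Ly49C/I+ WT cells and 6.04% for Ly49C/I+ against uneducated NKG2A KO cells. Between genotypes the share was 0.0431% in uneducated and 1.57% in Ly49C/I+ cells.

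**Figure D4:**
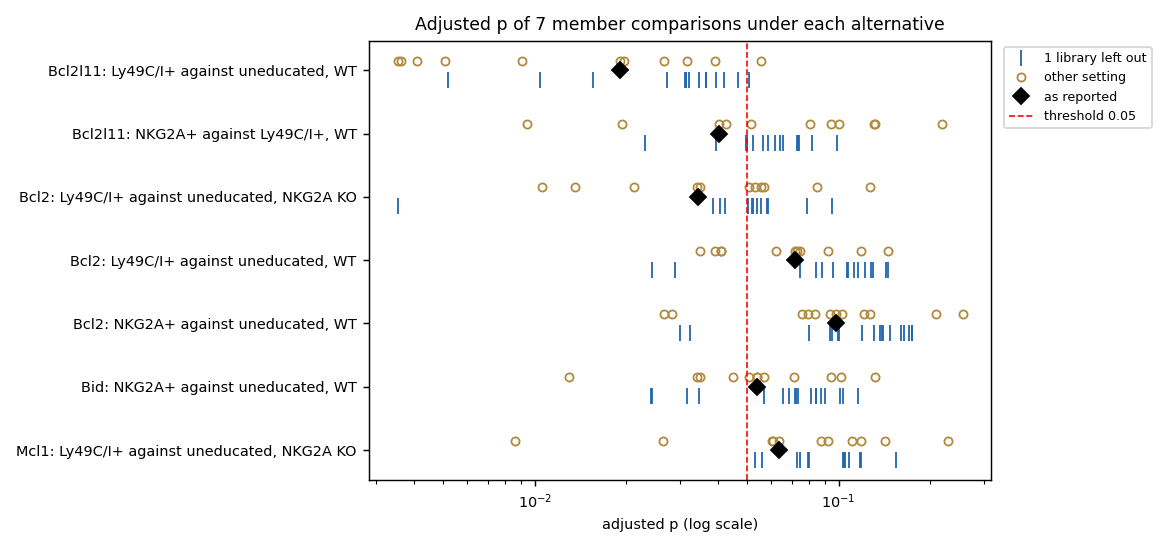
The horizontal axis gives the adjusted p (log scale) of 7 comparisons of a member, as reported (black diamonds), with 1 library left out (blue ticks) and under other settings (open circles), with the threshold of 0.05 as a dashed line. Bcl2l11 in Ly49C/I+ against uneducated WT cells lies under the line in 24 of 26 alternatives, and the other 6 comparisons lie on both sides of it.

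The ratio of the main protective transcript to Bcl2l11 was lowest in WT Ly49C/I+ cells. Mcl1 over Bcl2l11, as a ratio of RPKM, was 3.03 ± 0.446 in WT Ly49C/I+ cells (SD, n = 6, range 2.47 to 3.46), 4.28 ± 0.606 in WT uneducated cells (n = 9, 3.33 to 5.20) and 4.10 ± 0.450 in WT NKG2A+ cells (n = 9, 3.21 to 4.82). In NKG2A KO mice it was 4.66 ± 0.944 in uneducated (n = 8) and 4.75 ± 1.30 in Ly49C/I+ cells (n = 5). Bcl2 over Bcl2l11 was 0.584 ± 0.108 in WT uneducated and 0.571 ± 0.0731 in WT Ly49C/I+ cells, which differed by less than their SD. It was 0.656 ± 0.127 in WT NKG2A+, 0.595 ± 0.147 in NKG2A KO uneducated and 0.815 ± 0.272 in NKG2A KO Ly49C/I+ cells, in which single libraries ranged from 0.534 to 1.23. Both ratios are derived from the levels above and were not tested.

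**Figure D5:**
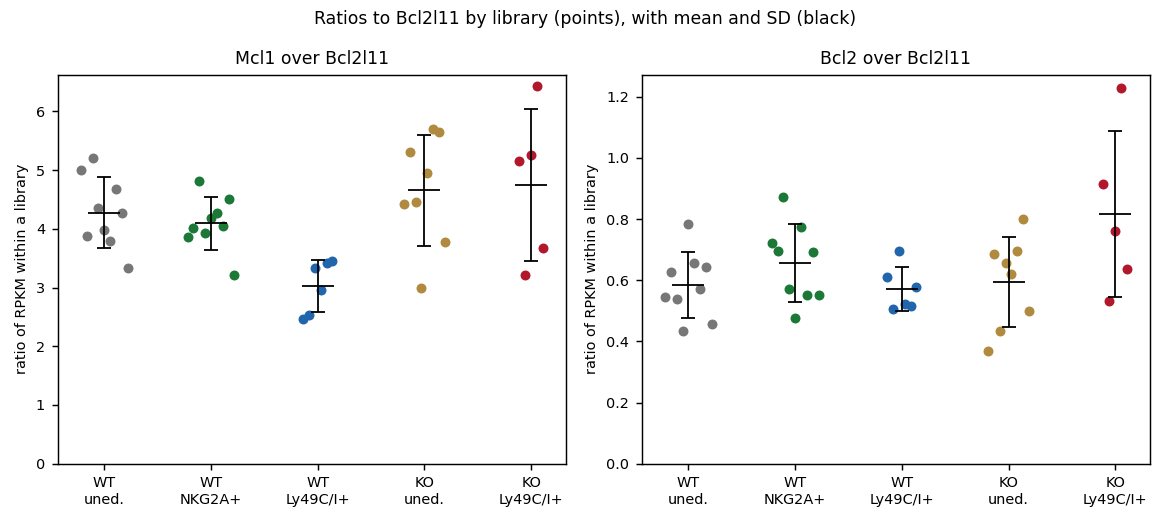
Points give, for every library, the RPKM of Mcl1 (left) or Bcl2 (right) divided by that of Bcl2l11, with the group mean and SD in black and axes that start at 0. The 6 WT Ly49C/I+ libraries lie between 2.47 and 3.46 for Mcl1 over Bcl2l11, and the 9 WT uneducated libraries between 3.33 and 5.20.

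Other genes of cell death and survival were taken from 6 lists of 83 genes in all, of which 82 were matched. In NKG2A+ against uneducated WT cells, 9 of the 68 genes tested were higher and 1 was lower, a share of 14.7% beside 15.0% of all genes tested. The largest increases were Trp53inp1 (log2 fold change 1.06), a p53-induced gene, the TNF receptor gene Tnfrsf1a (0.97) and Pim2 (0.89), a kinase of cytokine survival signals, and the decrease was Ccng1 (-0.32), another p53 target. In Ly49C/I+ against uneducated WT cells, 5 of 67 were higher and 2 were lower, a share of 10.4% beside 9.20% of all genes tested, so that in both comparisons the lists lay near the background. Trp53inp1 (1.04), Birc2 (0.65), which encodes an inhibitor of apoptosis protein, and Mdm4 (0.63), which encodes an inhibitor of p53, were higher, and Ccng1 (-0.56) was among the lower ones. From NKG2A KO mice, 69 genes were tested, of which 8 were higher and 7 were lower in Ly49C/I+ cells, a share of 21.7% beside 16.3% of all genes tested, and whether these shares differ was not tested. Trp53inp1 (1.24), Foxo3 (0.73), a transcription factor that acts on Bcl2l11, and Tnfsf10 (0.72), which encodes TRAIL, had the largest increases, and Myb (-1.08) and Birc5 (-0.55), which encodes survivin, were among the largest decreases. No gene of these lists passed between NKG2A+ and Ly49C/I+ WT cells, between genotypes or for the difference between genotypes. Of 15 other BCL2 family genes, such as Bad and Bnip3l, 5 or 6 were tested in each comparison and none passed. Bcl2a1d, the copy nearest to Bcl2a1b, was at 18.5 ± 3.45 CPM in NKG2A+ and 13.6 ± 2.46 CPM in uneducated WT cells (SD, n = 9 and 9), a log2 fold change of 0.45 (adjusted p = 0.0741, edgeR quasi-likelihood test).

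The members whose group means of log2(CPM + 1) spread most were Pmaip1 (range 0.85), Bcl2a1b (0.80) and Bcl2 (0.63), and Bcl2l1 spread least (0.09). Over the 37 libraries, which differ in depth and group, the genes most like Bcl2 among 9286 were Pitpnc1 (Pearson r of log2(CPM + 1) 0.801, Spearman rho 0.726), Ltb (0.786 and 0.741) and Sp110 (0.782 and 0.682). Those most like Bcl2a1b were Ccl4 (0.714 and 0.627), Rnf114 (0.693 and 0.643) and H2-T23 (0.681 and 0.597). Without the 2 libraries farthest from the median of the member, r was 0.706, 0.762 and 0.724 for the 3 genes of Bcl2 and 0.624, 0.624 and 0.584 for those of Bcl2a1b. For Pmaip1, Exoc6 (r 0.800), Ipo13 (0.791) and Urgcp (0.779) came first, but r was 0.326, 0.151 and 0.382 without WT uneducated 5 and WT Ly49C/I+ 5, so that the likeness rests on these 2 libraries of few detected genes. These values describe likeness across libraries and were not tested.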

How the data were processed

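RNA from sorted uNK cells was amplified with SMART-Seq v4, made into libraries with Nextera XT and sequenced. Per the submitters' processing notes and the study's methods, reads were trimmed with Trim Galore (version 0.5.0), checked with FastQC (0.11.4) and aligned to GRCm38 with STAR (2.7.1), and edgeR (3.26.5) in R (3.6.1) was used downstream. The sources used here do not give the counting program or its strand setting. The authors deposited raw counts per Ensembl gene and library, without the GC correction of their own analysis. The 5 lines that summarise uncounted reads stayed out of library sizes and tests, with 2.69% to 6.83% of reads on no feature, 4.04% to 4.60% ambiguous and 11.3% to 13.8% aligned to several places, as shares of all reads summarised for a library.

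Groups followed the labels. Replicate numbers came from the titles, except that WT Ly49C/I+ libraries 4, 5, 7 and 8 carry the numbers of their descriptions, which the titles give as 3, 4, 5 and 6, and that the description of WT uneducated 5 repeats number 4. For each comparison, a gene had to reach 5 CPM in 0.5 or more of its libraries and was then tested on the counts with the quasi-likelihood test of edgeR (4.0.16, TMM factors, R 4.3.3), Benjamini-Hochberg adjustment over all genes tested and a threshold of 0.05. Alternatives were DESeq2 (1.42.0), the likelihood ratio test of edgeR, its RLE factors, no filter or one of 1 CPM, offsets for GC content and length, a replicate block, all groups in 1 fit, and libraries left out. Summing the A1 copies was chosen after seeing the data. It is counted among the alternatives of every member, although it can change little for members other than Bcl2a1b. CPM levels used TMM factors over all 37 libraries, and RPKM divided them by the exon length in GENCODE M21. Ensembl IDs with a symbol numbered 52147 of 53700. Named pathway genes were the 3 largest increases and the 3 largest decreases past the threshold in each comparison, of which 1 gene is not reported here, and likeness was given for the 3 members with the widest group means. Replicate pairs differed well beyond sampling noise (chi-square per gene of 23.7 or more), so no library was a repeat of another and all were kept. This check cannot show that the libraries came from separate mice. The tests were checked on simulated data, with 200 changed genes drawn at random from those tested. Where the simulated log2 fold change was 0.5, the tests recovered between 10.4% and 35.8% of cases, depending on the comparison. At 1 the share was 29.9% to 82.1%, and at 2 it was 81.8% to 98.5%. A member that did not pass was therefore not shown to be unchanged. Figures were drawn with Python (3.11.15) and matplotlib (3.10.9). The members and lists were chosen with earlier results of these data known.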

Additional observations from a re-analysis of the deposited data

Results flagged for a closer look

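Within a group of libraries, 6 of 50 tests for a value far from its neighbours (Dixon's test at the 95% level) found one, where chance finds about 1 in 20. Bcl2l1 was at 145.9 CPM in WT uneducated 5, with the next library at 94.99 CPM, and Bak1 was highest in the same library, at 7.846 against 4.49 CPM. This library is 1 of the 4 with few detected genes. In NKG2A KO uneducated cells, Bcl2l1 was at 113.6 CPM in library 4, with the next at 90.68 CPM, and Bbc3 was at 37.99 CPM in library 7, with the next at 25.58 CPM. Among NKG2A KO Ly49C/I+ libraries, Mcl1 was lowest in library 8, at 412.2 CPM against 455.0 CPM in the nearest, and Bax was highest in library 5, at 142.7 against 128.4 CPM. Library 5 is also 1 of those with few detected genes.

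Bcl2l11 passed the threshold between the educated WT groups in their direct comparison, with a log2 fold change of -0.3081 in NKG2A+ relative to Ly49C/I+ cells. The adjusted p was 0.0404 (edgeR quasi-likelihood test), at the edge of the threshold, and the call held in only 8 of 26 alternatives.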

How the results depend on the processing

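Of 1755 log2 fold changes of members under an alternative, 1610 kept their direction and their side of the threshold, 35 were no longer past it, 22 were newly past it and 88 changed sign. The cause of these changes was not tested.

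With the edgeR likelihood ratio test or DESeq2, 1 member passed in NKG2A+ against uneducated WT cells and 2 in Ly49C/I+ against uneducated WT cells, and DESeq2 called 2 in NKG2A KO Ly49C/I+ against uneducated cells, where Mcl1 also passed with GC content and length offsets (0.30, adjusted p = 0.00862, edgeR quasi-likelihood test). With all groups in 1 fit, the members past the threshold were 1, 3 and 0 for NKG2A+ and Ly49C/I+ against uneducated WT cells and for NKG2A+ against Ly49C/I+ WT cells. Without the libraries of few detected genes they were 2, 2 and 0, and 0 in NKG2A KO mice. Without number 5 of both groups, 1 member passed in NKG2A+ against uneducated WT cells. With no filter on low counts, 0 members passed for Ly49C/I+ against uneducated WT cells, for NKG2A+ against Ly49C/I+ WT cells and in NKG2A KO mice, and the last 2 also had 0 with a filter of 1 CPM. GC content and length offsets left 0 for NKG2A+ against Ly49C/I+ WT cells. The number of all genes past the threshold also moved with the setting. For Ly49C/I+ against uneducated WT cells it was 1528 with all groups in 1 fit, beside 855 as reported. These counts of members are therefore no result about the members.

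Of all genes, 451 passed with no filter and 1528 with all groups in 1 fit for Ly49C/I+ against uneducated WT cells. For NKG2A+ against Ly49C/I+ WT cells, 442 passed with the likelihood ratio test, 558 with DESeq2, 104 with no filter and 115 with GC content and length offsets. For Ly49C/I+ against uneducated NKG2A KO cells, 889 passed with no filter. Between genotypes, the likelihood ratio test and DESeq2 called 1 and 1 genes in uneducated cells, 60 and 84 in Ly49C/I+ cells (18 with all groups in 1 fit) and 1 and 1 for the difference of the Ly49C/I+ effect.

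The values in this paragraph rest on the descriptions' numbers for WT Ly49C/I+ libraries, where titles differ, and other numberings were not run. The main tests did not pair libraries by replicate number, and the labels do not say whether libraries of equal number share a mouse. Within a genotype, libraries correlated best with their own number for 4 of 9, 5 of 6, 6 of 6 and 3 of 5 numbers, in the order of the report. Between genotypes this held for 3 of 8 and 2 of 4. In no comparison was the correlation of deviations over 0.1 for every shared number. The labels do not settle whether the numbers pair the libraries, although 5 of 6 and 6 of 6 matched in the WT comparisons with Ly49C/I+ cells. If the numbers do pair libraries, the main p-values leave the pairing out. With a replicate block, Bcl2l11 in NKG2A+ against Ly49C/I+ WT cells was at -0.25 and no longer passed (adjusted p = 0.0803, edgeR quasi-likelihood test). Bcl2 in NKG2A KO mice did not pass either, as given above. With a replicate block, Bcl2l11 in Ly49C/I+ against uneducated WT cells was at 0.60 (adjusted p = 0.00363, edgeR quasi-likelihood test). With a replicate block, 0 members passed for NKG2A+ against Ly49C/I+ WT cells and for Ly49C/I+ against uneducated NKG2A KO cells, also with GC content and length offsets. Of all genes, the block gave 759 in NKG2A KO mice and, with the offsets, 563 there and 116 for NKG2A+ against Ly49C/I+ WT cells. Signs that changed with the block were Pmaip1 in Ly49C/I+ against uneducated WT cells (0.1779, and 0.3063 with the offsets), Bax (-0.0008) and Bbc3 (-0.0534 and -0.0087) in NKG2A KO mice, Pmaip1 between genotypes in uneducated cells (0.2145 and 0.2301), and Bcl2l1 in the difference between genotypes (-0.0641 and -0.006). With the block and the offsets together, Bbc3 was at -0.1967 in Ly49C/I+ against uneducated WT cells, Bcl2a1b at -0.0348 in NKG2A+ against Ly49C/I+ WT cells, Bid at -0.0191 between genotypes in Ly49C/I+ cells and Bcl2 at -0.0848 in the difference between genotypes.

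With GC content and length offsets alone, the sign changed for Bbc3 in Ly49C/I+ against uneducated WT cells (-0.222), Bcl2a1b in NKG2A+ against Ly49C/I+ WT cells (-0.0834), Bcl2l1 in NKG2A KO mice (0.0068), and Bcl2l11 (-0.0063) and Bid (-0.0052) between genotypes in uneducated and Ly49C/I+ cells. Bbc3 in Ly49C/I+ against uneducated WT cells was also at -0.0046 with DESeq2, -0.005 with RLE factors, -0.008 with no filter and -0.0154 with a filter of 1 CPM. Without the libraries of few detected genes, the sign changed for Bax (-0.0466) and Pmaip1 (-0.0194) in NKG2A+ against uneducated WT cells, Bcl2l1 in Ly49C/I+ against uneducated WT cells (0.0616), Bax in NKG2A KO mice (-0.0159), Bcl2l1 between genotypes in uneducated cells (0.0844) and Bcl2l1 in the difference between genotypes (-0.1086). Without number 5 of both groups, Bcl2l1 in NKG2A+ against uneducated WT cells was at 0.0317.

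With 1 library left out at a time, the genes past the threshold ranged from 1118 to 1687, 466 to 1227, 147 to 306 and 967 to 1763 in the 4 comparisons within a genotype, from 0 to 0 and 0 to 15 between genotypes in uneducated and Ly49C/I+ cells, and from 0 to 0 for the difference. Members past it ranged from 0 to 2, 0 to 2, 0 to 1 and 0 to 1, with 0 in the other 3. Log2 fold changes that changed sign ranged, in NKG2A+ against uneducated WT cells, from -0.1552 to 0.0247 for Bcl2l1 and -0.016 to 0.0715 for Bax. In Ly49C/I+ against uneducated WT cells they ranged from -0.1656 to 0.0954 for Bcl2l1, -0.0105 to 0.0784 for Mcl1 and -0.0983 to 0.0751 for Bbc3. In NKG2A+ against Ly49C/I+ WT cells they ranged from -0.1272 to 0.0481 for Bcl2l1, -0.0552 to 0.1679 for Bcl2a1b and -0.0683 to 0.018 for Bid. In NKG2A KO mice they ranged from -0.1208 to 0.0624 for Bcl2l1 and -0.0159 to 0.049 for Bax. Between genotypes in uneducated cells they ranged from -0.0935 to 0.1147 for Bcl2, -0.1017 to 0.0844 for Bcl2l1, -0.0684 to 0.0977 for Bcl2l11, -0.0891 to 0.0235 for Bid and -0.2835 to 0.1245 for Pmaip1, and in Ly49C/I+ cells from -0.1187 to 0.103 for Bcl2l1 and -0.0817 to 0.0984 for Bid. For the difference they ranged from -0.1009 to 0.1517 for Bcl2l1 and -0.0415 to 0.1361 for Bid.

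Read depth limits Bak1, with 10 to 123 reads per library, and sequence identity limits Bcl2a1b. Levels of RNA say nothing of protein.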
